A study of Rattus norvegicus with 6 samples.

Results

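The Hox genes measured in 6 PAIII tumors of the rat were described as 1 family. Members were taken by symbol alone, as every gene named Hox with a cluster letter from a to d and a paralog number, which gave 25 of the 17030 gene symbols in the table. The HoxA cluster had 6 of them, HoxB 7, HoxC 5 and HoxD 7. Paralog groups 1 to 5 were called anterior (10 genes), groups 6 to 8 central (4 genes) and groups 9 to 13 posterior (11 genes). Hoxa3, Hoxa4, Hoxa5, Hoxa7, Hoxa10, Hoxb1, Hoxb2, Hoxb6, Hoxc6, Hoxc10, Hoxc11, Hoxc13, Hoxd8 and Hoxd11 were not analysed here.

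Hox genes encode homeodomain transcription factors that lie in 4 clusters and are switched on along the head-to-tail axis in the order in which they lie on the chromosome. Anterior and central members of HoxA and HoxB are the ones best known from the developing lung, whereas the posterior, Abdominal-B type members, and above all the group 13 genes Hoxa13, Hoxb13 and Hoxd13, pattern the urogenital tract and the prostate. Adult stromal cells such as fibroblasts keep a Hox pattern that reflects their site of origin.

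PAIII is a serially passaged, transplantable line from a prostate adenocarcinoma of a Lobund-Wistar rat, so all 6 tumors stand for 1 line. Cells were placed under the skin of the flank of Lobund-Wistar rats at an age of 2 months, and tumors were collected on day 40. Digitoxin, a cardiac glycoside, went to A1, A6 and A12 (labelled replicates 1, 2 and 3) at 0.03 mg/kg each day from day 10, and vehicle to B5, B9 and B14 (labelled replicates 1, 2 and 3). Control rats had been picked for high, and digitoxin rats for low, serum IL-6 and CINC-1, so treatment cannot be told apart from that choice. Each library is described as coming from punches of viable regions of 1 primary tumor, and the paper does not say whether punches were pooled. Values are FPKM, the reads of a transcript per kilobase and scaled to the mapped reads of the library. Groups follow the labels, and n is 3 tumors in each.

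The libraries differed in tissue content before any Hox gene was considered. Summed FPKM of 11 alveolar lung genes, among them the surfactant mRNA Sftpc, was 51111 in A1, 83752 in A6, 27495.5 in B5 and 36100.5 in B9, but 19.0 in A12 and 27.1 in B14. The paper gives primary tumors as the source of this RNA, and where the lung mRNA in flank tumors came from was not tested. FPKM summed over all rows ran from 651322 in B14 to 1025230 in A6. The luminal keratin Krt8 was at 398 FPKM or more in every library, whereas the prostate markers Pbsn, Cyp2b15 and Spink3 were listed at 0 in all 6. The prostate transglutaminase Tgm4, of the same list, was above 0 in every library, from 5.22 FPKM in B14 to 16.0 FPKM in A6, and was lowest in B14 and A12. Depth is unknown, and an entry of 0 can be a failed estimate, since Col1a2 was listed at 0 in all 6 libraries while its partner chain Col1a1 reached 1665 FPKM. Such genes are given library by library.

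Measured Hox mRNA was carried by few genes, led by Hoxb7 (central), Hoxd9 (posterior), Hoxb3 (anterior) and Hoxc9 (posterior), and of the genes measured those of paralog groups 10 to 13 added little. Of the 25 members, 10 had a mean of at least 1 FPKM, 13 reached 1 FPKM in at least 1 library, and 18 were above 0 in at least 1 library. The share with a mean of at least 1 FPKM was 40%, against 63.1% of all symbols. The 7 members listed at 0 in every library were Hoxa6, Hoxa9, Hoxa11, Hoxa13, Hoxc12, Hoxd12 and Hoxd13. All 6 HoxA genes stood on more than 1 row of the table, the further rows at 0 throughout, so the zeros of the 4 HoxA genes among these 7 are uncertain. A further 5 were above 0 but never reached 1 FPKM, among them Hoxb13, Hoxd1, Hoxd3 and Hoxd10. By class, 7 of 10 anterior, 3 of 4 central and 3 of 11 posterior genes reached 1 FPKM in a library. By cluster it was 1 of 6 in HoxA, 6 of 7 in HoxB, 4 of 5 in HoxC and 2 of 7 in HoxD.

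**Figure D1:**
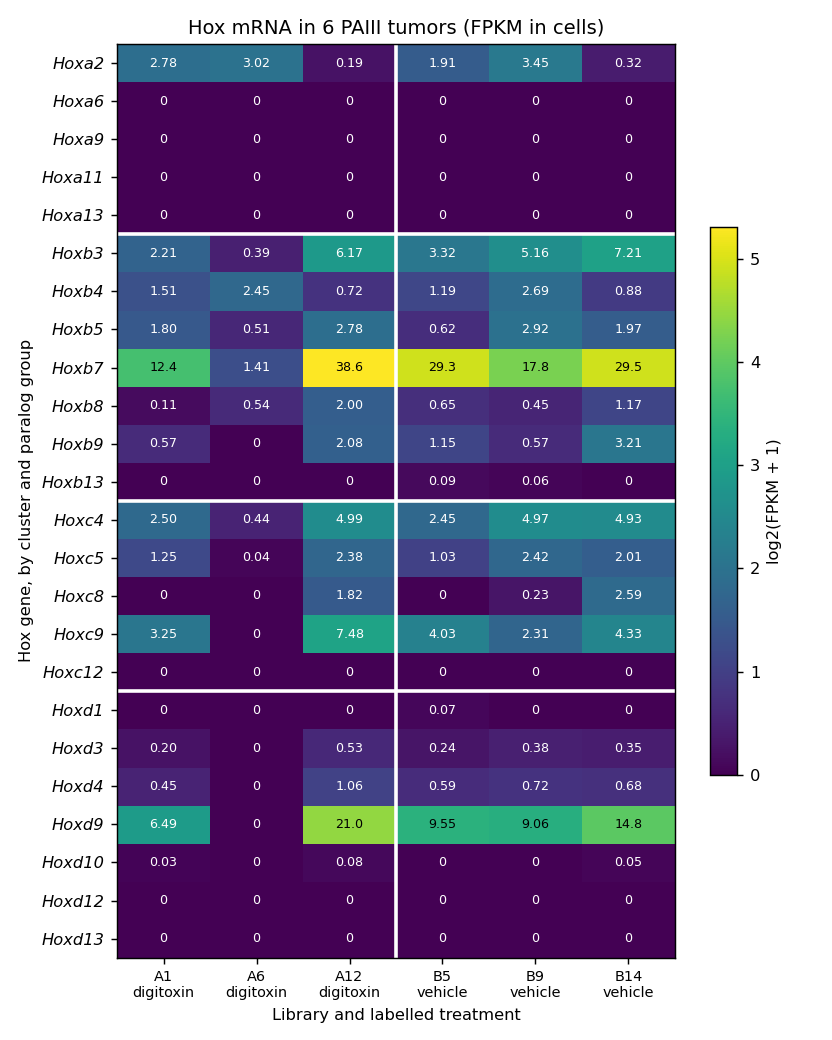
FPKM of the Hox genes described here (rows, by cluster and paralog group) in the 6 libraries (columns, digitoxin left and vehicle right), with colour on a log2(FPKM + 1) scale and the FPKM printed in each cell. The bright cells are Hoxb7 and Hoxd9, and every gene of groups 10 to 13 stays at or below 0.0937 FPKM.

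Summed over all 25 genes, Hox mRNA was at 56.2, 54.0 and 74.0 FPKM with vehicle (B5, B9 and B14) and 36.2, 8.98 and 92.2 FPKM with digitoxin (A1, A6 and A12). A12 stood highest and A6 lowest, both of them labelled digitoxin, so the digitoxin range enclosed all 3 vehicle values. A low value in A6 was common in the table, where 50.6% of tested symbols were lowest in that library, beside 8 of the 10 Hox genes with a mean of at least 1 FPKM. The means were 45.8 ± 42.4 FPKM with digitoxin and 61.4 ± 11.0 FPKM with vehicle (SD, n = 3 each). After median-of-ratios scaling of the libraries the sum still ran from 11.0 in A6 to 87.1 in A12. The number of Hox genes at 1 FPKM or more was 9, 9 and 10 with vehicle (B5, B9 and B14) and 9, 3 and 11 with digitoxin (A1, A6 and A12), a mean of 8.5 ± 2.81 (SD, n = 6). In bulk tissue, fewer cells of a type and less RNA per cell cannot be told apart.

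The posterior class holds the genes known from the prostate and urogenital tract, and in it group 9 carried nearly all of the mRNA. Hoxd9, an Abdominal-B type gene of the HoxD cluster at chr3:68086527-68088228, was at 9.55, 9.06 and 14.8 FPKM with vehicle (B5, B9 and B14) and 6.49, 0 and 21.0 FPKM with digitoxin (A1, A6 and A12). A12 and B14 were the 2 highest and A6 the lowest, and the treatment groups overlapped. Hoxc9, at chr7:142387316-142389991, was at 4.03, 2.31 and 4.33 FPKM with vehicle (B5, B9 and B14) and 3.25, 0 and 7.48 FPKM with digitoxin (A1, A6 and A12), again with A12 highest and A6 at 0. Hoxb9, the third member of its group above 0, was at 1.15, 0.571 and 3.21 FPKM with vehicle (B5, B9 and B14) and 0.567, 0 and 2.08 FPKM with digitoxin (A1, A6 and A12). Hoxa9, the HoxA member of the group, was listed at 0 in all 6 libraries. The group 9 sum was thus 0 in A6 and ran from 10.3 FPKM in A1 to 30.5 FPKM in A12.

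The 7 measured genes of groups 10 to 13 were at or below 0.0937 FPKM in every library, and 5 of them were listed at 0 throughout. Hoxb13, the group 13 gene that marks adult prostate epithelium, reached 0.0937 FPKM in B5 and 0.0550 FPKM in B9 and was listed at 0 in A1, A6, A12 and B14. Both values came from libraries with alveolar mRNA of 27495.5 FPKM or more, but A1 and A6, which had the most of it, listed 0. So did A12 and B14, which were almost without it. Estimated depths of A12 and B14 were 0.5 and 0.7474 of that of B9, so their zeros set no contrast at such low values. Hoxa13 and Hoxd13, which pattern the urogenital sinus, were listed at 0 in all 6, as was Hoxd12. Hoxd10 was at 0.0328 FPKM in A1, 0.0764 in A12 and 0.0518 in B14, and at 0 in the other 3. Without known depth no limit of detection can be set for these genes. Across all symbols, 15.8% were listed at 0 in every library.

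In HoxD, the only cluster with a group 10 gene analysed here, the step between groups 9 and 10 fell within a short stretch. In the coordinates of the table, 2848 bases separate Hoxd10 from Hoxd9, and in A12 the levels per length were 0.0764 FPKM for Hoxd10 and 21.0 FPKM for Hoxd9. In B14 they were 0.0518 and 14.8 FPKM, whereas in A6 both genes were listed at 0. In HoxB, 86038 bases lie between Hoxb13 and Hoxb9, and in HoxC 46421 bases lie between Hoxc12 and Hoxc9.

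The promoters of the genes on both sides of the HoxD step are shown so that the start regions can be compared, together with that of Hoxa2, an anterior gene that was lowest in the libraries where Hoxd9 was highest. Sequences are the 250 bases before each RefSeq gene start in GRCr8, 5′ to 3′ on the coding strand, and 13 of the 25 members had an entry. They were searched on both strands for TGATNNAT, the site type bound by PBX with an anterior Hox partner, and TTTATNG, the type bound by posterior Hox and Cdx proteins, and capitals mark a match. Hoxd10 lies at chr3:80001697-80001946 (plus strand), Hoxd9 at chr3:80007756-80008005 (plus strand) and Hoxa2 at chr4:82595693-82595942 (minus strand).
Hoxd10: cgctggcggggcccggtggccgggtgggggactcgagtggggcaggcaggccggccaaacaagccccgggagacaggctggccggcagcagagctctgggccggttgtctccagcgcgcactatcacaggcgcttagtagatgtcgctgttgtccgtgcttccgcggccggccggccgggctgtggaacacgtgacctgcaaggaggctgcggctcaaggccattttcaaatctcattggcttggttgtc
Hoxd9: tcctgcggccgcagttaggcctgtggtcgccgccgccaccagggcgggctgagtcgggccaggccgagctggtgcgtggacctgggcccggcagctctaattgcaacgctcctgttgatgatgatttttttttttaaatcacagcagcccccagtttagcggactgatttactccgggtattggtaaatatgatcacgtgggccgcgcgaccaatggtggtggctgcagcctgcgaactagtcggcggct
Hoxa2: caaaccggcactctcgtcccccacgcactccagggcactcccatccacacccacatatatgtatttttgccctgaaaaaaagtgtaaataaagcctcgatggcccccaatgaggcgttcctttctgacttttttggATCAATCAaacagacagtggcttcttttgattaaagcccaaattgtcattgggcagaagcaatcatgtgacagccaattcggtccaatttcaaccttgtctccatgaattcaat
The Hoxd9 and Hoxd10 starts were alike in composition, with 20 and 21 CpG dinucleotides and 60% and 67.2% G plus C. Hoxa2 had 6 CpG and 45.2% G plus C, close to the medians of 5 and 51.2% over all promoters in the table. The only match among the 3 was 1 TGATNNAT match in Hoxa2. TGATNNAT was present in 7.96% and TTTATNG in 10.1% of 33469 rat promoters of that length. A match of letters is not evidence of binding.

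Central Hox mRNA was mainly Hoxb7. Hoxb7, a trunk-level HoxB gene at chr10:83937955-83941374, was at 29.3, 17.8 and 29.5 FPKM with vehicle (B5, B9 and B14) and 12.4, 1.41 and 38.6 FPKM with digitoxin (A1, A6 and A12). It was the most abundant Hox mRNA in every library except A6, where Hoxa2 and Hoxb4 were above it, and it made up from 15.7% (A6) to 52.2% (B5) of the Hox sum. Its mean ranked 4625 among the 17030 symbols. Hoxb8, its neighbour at 1976 bases in the table's coordinates, was far lower, at 0.651, 0.454 and 1.17 FPKM with vehicle (B5, B9 and B14) and 0.113, 0.540 and 2.0 FPKM with digitoxin (A1, A6 and A12). The ratio of Hoxb7 to Hoxb8, both per length, ran from 2.62 in A6 to 110 in A1. Hoxc8, the HoxC paralog of Hoxb8 and a trunk patterning gene, was at 1.82 FPKM in A12, 2.59 in B14 and 0.233 in B9 and was listed at 0 in A1, A6 and B5. A12 and B14 also had the highest summed FPKM of 8 fibroblast genes, 2818 and 3981, against 230 to 855 in the other 4 libraries, with Lum at 217 and 401 FPKM. Pdgfra of that list was instead highest in A6, at 10.8 FPKM, and was at 5.62 FPKM in A12. The part of fibroblasts in the Hoxc8 signal was not tested. Hoxa6 was listed at 0 in all 6 libraries.

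Anterior genes did not follow a single order across libraries. Hoxb3, a group 3 gene at hindbrain and pharyngeal levels, was at 3.32, 5.16 and 7.21 FPKM with vehicle (B5, B9 and B14) and 2.21, 0.388 and 6.17 FPKM with digitoxin (A1, A6 and A12). Hoxc4 was at 2.45, 4.97 and 4.93 FPKM with vehicle (B5, B9 and B14) and 2.5, 0.443 and 4.99 FPKM with digitoxin (A1, A6 and A12). Its neighbour Hoxc5 was at 1.03, 2.42 and 2.01 FPKM with vehicle (B5, B9 and B14) and 1.25, 0.0442 and 2.38 FPKM with digitoxin (A1, A6 and A12). All 3 were lowest in A6, and B9 stood with A12 and B14 rather than with A1. Hoxb5, a gene required for normal branching of the lung, was at 0.617, 2.92 and 1.97 FPKM with vehicle (B5, B9 and B14) and 1.80, 0.508 and 2.78 FPKM with digitoxin (A1, A6 and A12). Hoxd4 was at 0.592, 0.720 and 0.675 FPKM with vehicle (B5, B9 and B14) and 0.450, 0 and 1.06 FPKM with digitoxin (A1, A6 and A12). Hoxd3 lay lower, between 0 in A6 and 0.529 FPKM in A12, and Hoxd1 was above 0 in B5 alone, at 0.0666 FPKM.

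Hoxa2 and Hoxb4 were lowest where most other members were highest. Hoxa2, which patterns the hindbrain and the second pharyngeal arch, was at 1.91, 3.45 and 0.317 FPKM with vehicle (B5, B9 and B14) and 2.78, 3.02 and 0.190 FPKM with digitoxin (A1, A6 and A12). The 4 libraries with alveolar mRNA of 27495.5 FPKM or more were all above A12 and B14. Hoxb4, known from blood stem cells, was at 1.19, 2.69 and 0.880 FPKM with vehicle (B5, B9 and B14) and 1.51, 2.45 and 0.716 FPKM with digitoxin (A1, A6 and A12), and placed the 6 libraries in the same order as Hoxa2. That order was shared by 0.81% of the 10740 tested symbols, and after median-of-ratios scaling Hoxa2 and Hoxb4 again shared 1 order, with 1.71% of symbols. The ratio of Hoxd9 to Hoxa2, per length, was 5.0, 2.62 and 46.6 with vehicle (B5, B9 and B14) and 2.33, 0 and 110 with digitoxin (A1, A6 and A12).

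Hoxb7 and Hoxd9 ordered the libraries as A12, B14, B5, B9, A1 and A6 from high to low, and the summed alveolar lung mRNA gave exactly the reverse. Among all tested symbols, 4.87% had that order, and 4.49% after median-of-ratios scaling. Hoxa2 ran the other way, with its 2 lowest values in the 2 libraries that had the least alveolar mRNA. The lung transcription factor Nkx2-1 was at 139 FPKM in A1, 213 in A6, 62.9 in B5 and 117 in B9 and was listed at 0 in A12 and B14. Tbx4, a T-box gene of lung mesenchyme and hindlimb, was at 10.7 FPKM in A1, 10.7 in A6, 7.81 in B5 and 13.3 in B9, but 0 in A12 and 0.108 FPKM in B14. Tcf21, a transcription factor of lung mesenchyme, was likewise between 16.6 and 54.1 FPKM in those 4 libraries and listed at 0 in A12 and B14. The limb gene Pitx1 stayed at or below 0.425 FPKM. Tbx5, like Tbx4 a T-box gene, was low but split the libraries in the same way. It was at 0.611 FPKM in A1, 1.00 in A6, 0.152 in B5 and 0.998 in B9 and was listed at 0 in A12 and B14. FPKM are shares of a library, and the part of lung tissue in the Hox values was not tested.

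**Figure D2:**
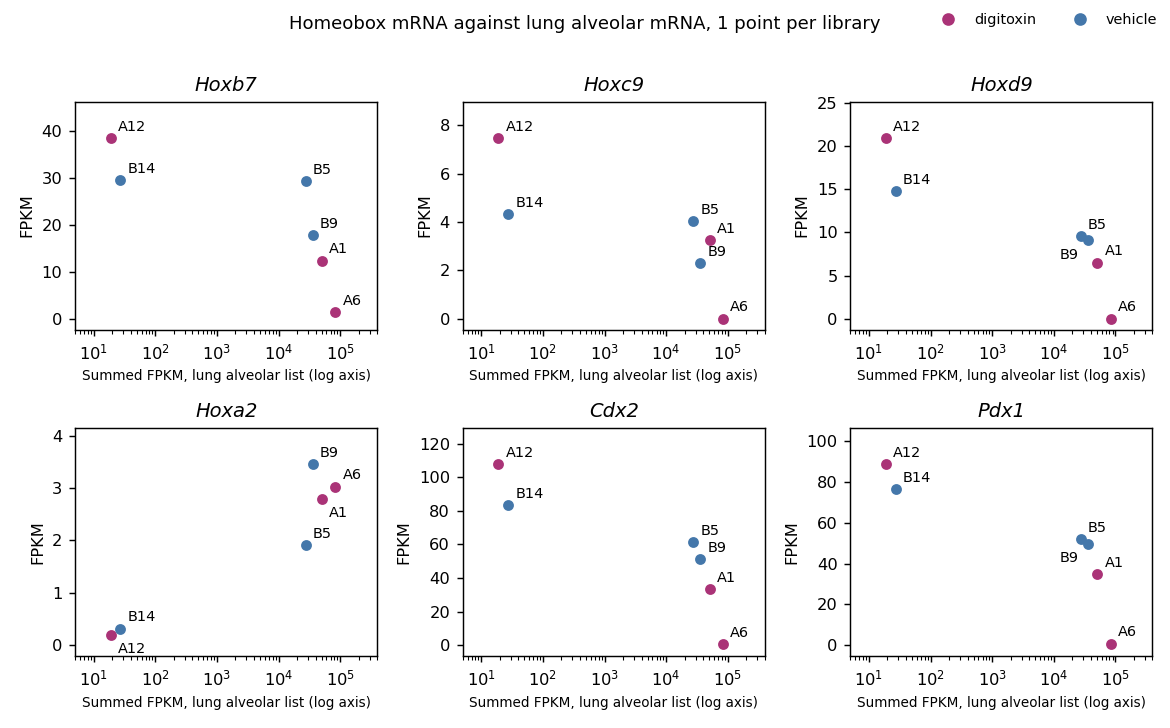
FPKM of Hoxb7, Hoxc9, Hoxd9, Hoxa2, Cdx2 and Pdx1 (vertical axes) against the summed FPKM of 11 alveolar lung genes (horizontal axes, log scale), with 1 labelled point per library coloured by treatment. A12 and B14 sit at 19.0 and 27.1 FPKM of alveolar mRNA, where Hoxa2 is lowest and the other 5 genes are highest.

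The balance of posterior and anterior Hox mRNA differed from library to library. Anterior genes summed to 11.4, 23.5 and 18.3 FPKM with vehicle (B5, B9 and B14) and 13.3, 7.03 and 19.1 FPKM with digitoxin (A1, A6 and A12). Posterior genes summed to 14.8, 12 and 22.3 FPKM with vehicle (B5, B9 and B14) and 10.3, 0 and 30.6 FPKM with digitoxin (A1, A6 and A12). The posterior sum was the larger in A12, B5 and B14 and the smaller in A1, A6 and B9. As a share of Hox mRNA, anterior genes ran from 20.3% in B5 to 78.3% in A6, central genes from 21.7% in A6 to 53.3% in B5 and posterior genes from 0% in A6 to 33.2% in A12. By cluster, HoxB held 51.4% to 64.6% of Hox mRNA in every library, while HoxA held 35.5% in A6 and 0.428% in B14. Of 10 Hox genes listed as known from the lung, 5 were in the table, among them Hoxa2, Hoxb3, Hoxb4 and Hoxb5. Their sum was 7.03, 15.0 and 10.4 FPKM with vehicle (B5, B9 and B14) and 8.92, 6.54 and 10.2 FPKM with digitoxin (A1, A6 and A12). It did not follow the alveolar mRNA, since A12 and B14 were above A1, A6 and B5. Of 8 listed as known from the urogenital tract, 6 were in the table, none passed the minimum mean, and their sum was at most 0.0937 FPKM.

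**Figure D3:**
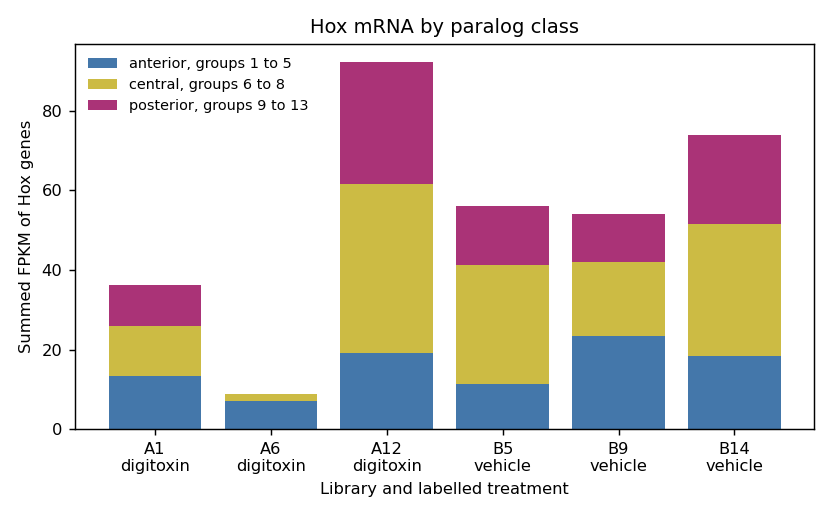
Stacked bars of summed Hox FPKM per library, split into anterior (groups 1 to 5), central (6 to 8) and posterior (9 to 13) genes. A6 has no posterior segment, and A12 has the tallest bar, at 92.2 FPKM.

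The log2 ratio of the posterior to the anterior sum, with 1 FPKM added to each, was 0.35, -0.92 and 0.27 with vehicle (B5, B9 and B14) and -0.34, -3.00 and 0.65 with digitoxin (A1, A6 and A12). Over the 6 libraries its mean was -0.50 ± 1.35 (SD, n = 6), it was above 0 in 3 of 6, and an exact two-sided sign-flip permutation test against 0 gave p = 0.5625. The mean was smaller than the spread between tumors. Without A6 the mean was 0.0045, and with the central genes counted as anterior it was -1.64, below 0 in all 6 libraries (exact sign-flip p = 0.03125, the smallest possible). The anterior sum then held Hoxb7, the most abundant Hox mRNA in every library except A6. The classes hold unequal numbers of genes, so 0 is not a neutral point for a ratio of sums. With groups 1 to 3 alone as anterior it turned to 0.57, above 0 in 5 of 6 libraries (exact sign-flip p = 0.375), so its direction depended on the class limits. The measure mattered too. At the reported limits the difference of mean log2(FPKM + 1) per class was -0.52, below 0 in all 6 libraries (exact sign-flip p = 0.03125). That mean counts every gene alike, also those listed at 0. Adding 0.1 in place of 1 FPKM to each sum gave -1.02. Between treatments, the ratio was -0.90 ± 1.89 with digitoxin and -0.0977 ± 0.71 with vehicle (SD, n = 3 each). The difference of -0.80 gave p = 0.7 in an exact two-sided permutation test, which cannot go below 0.1. It was 0.26 without A6 and -1.57 without A12, both digitoxin libraries, and -1.84 with 0.1 FPKM added to each sum.

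No Hox gene passed the test between digitoxin and vehicle tumors. With limma on log2(FPKM + 1), 0 of the 10 Hox genes tested, and 0 of all 10740 symbols with a mean of at least 1 FPKM (0%), had an adjusted p under 0.05. At an unadjusted p under 0.05 there were again 0 Hox genes, beside 36 symbols (0.335%). None of the 10 had groups that did not overlap, against 4.16% of tested symbols. The log2 fold change, digitoxin minus vehicle, was below 0 for 9 of the 10, with a median of -0.49. Over all tested symbols 64.9% were below 0 and the median was -0.16. Median-of-ratios scaling moved the median of all symbols up by 0.18 and left 7 Hox genes below 0, with a Hox median of -0.44. With the replicate number as a block, 446 of all symbols and 0 Hox genes had an unadjusted p under 0.05.

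The largest of these fold changes belonged to Hoxb7 and Hoxd9. Hoxb7 averaged 17.5 ± 19.1 FPKM with digitoxin and 25.6 ± 6.69 FPKM with vehicle (SD, n = 3 each), and its log2 fold change was -1.26 (standard error 0.98, limma adjusted p = 0.926). Over the alternatives its adjusted p ran from 0.251 to 1. For Hoxd9 it was -1.12 (standard error 1.09) and for Hoxc9 -0.43 (standard error 0.80). Of the anterior genes, Hoxb3 had -0.92 (standard error 0.65) and Hoxc4 -0.67 (standard error 0.59). Hoxa2, named here after its values were seen, had 0.03 (standard error 0.68), which became -0.0627 with a pseudocount of 0.1. Hoxb8 fell below the minimum mean, and without that filter its log2 fold change was -0.0072 (standard error 0.39). The digitoxin libraries A6 and A12 pulled these values in opposite directions. Without A6, Hoxb7 was at -0.17, Hoxd9 at 0.11, Hoxc9 at 0.43, Hoxb3 at -0.33, Hoxc4 at -0.12 and Hoxa2 at -0.28. Without A12 the log2 fold changes were -2.19 for Hoxb7, -2.12 for Hoxd9, -1.11 for Hoxc9, -1.51 for Hoxb3, -1.14 for Hoxc4 and 0.60 for Hoxa2. In that last fit 3 Hox genes, Hoxb3, Hoxb7 and Hoxd9, had an unadjusted p under 0.05, beside 2128 of all symbols. Leaving out B14 turned Hoxa2 to -0.45 and leaving out A1 turned it to -0.23.

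**Figure D4:**
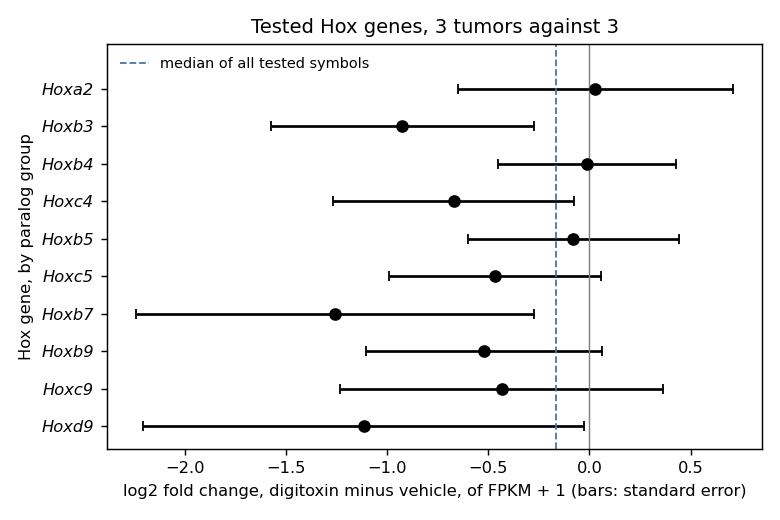
Log2 fold change of FPKM + 1, digitoxin minus vehicle, for the 10 tested Hox genes by paralog group, as points with standard errors from limma (n = 3 tumors each), and the median of all tested symbols as a dashed line at -0.16. Every estimate lies within 2 standard errors of 0.

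Genes that act above or beside the Hox clusters were read from further lists, none of which had a member past the adjusted threshold. ParaHox genes are the sister family of Hox. Cdx2, a caudal-type gene of the intestine that also regulates Hox clusters, was at 61.3, 51.2 and 83.3 FPKM with vehicle (B5, B9 and B14) and 33.4, 0.391 and 108 FPKM with digitoxin (A1, A6 and A12). Pdx1, the pancreatic and duodenal ParaHox gene, was at 51.9, 49.8 and 76.4 FPKM with vehicle (B5, B9 and B14) and 34.8, 0.772 and 88.8 FPKM with digitoxin (A1, A6 and A12). Both placed the libraries in the order of Hoxb7 and Hoxd9, with overlapping groups, and both had higher FPKM than any Hox gene in A1, A12, B5, B9 and B14. Their log2 fold changes were -1.91 (standard error 1.52) and -1.73 (standard error 1.39), and Cdx4, Gsx1 and Gsx2 were listed at 0 in all 6.

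Hox proteins bind DNA together with TALE homeodomain partners. Of a list of 10 TALE genes 9 were in the table and tested, 3 above and 6 below 0 (3 below 0 after median-of-ratios scaling), with a median log2 fold change of -0.0580 that became 0.0970 with median-of-ratios scaling. Tgif1, a TALE repressor, was at 21.8 FPKM in A6 and 209 in A12, Pbx2, a Hox partner, at 15.6 FPKM in A12 and 42.5 in A6, and Meis3 at 2.29 FPKM in A12 and 28.2 in A6. Retinoic acid opens Hox clusters from their anterior end, and its 14 genes had a median log2 fold change of 0.23 (0.42 after median-of-ratios scaling), with 8 above 0. The retinoic acid synthesis genes Aldh1a1 and Aldh1a3 were opposite across libraries, since Aldh1a1 was at 228 FPKM in A6 and 0.196 in A12 and Aldh1a3 at 0.491 FPKM in A6 and 170 in A12. Polycomb proteins hold Hox clusters silent, and 14 of 16 listed genes were below 0, against 64.9% of all tested symbols, with a median of -0.29. After median-of-ratios scaling 10 of the 16 were below 0 and the median was -0.11. Rbbp7 and Phc2 were the most abundant, and Ezh2, the methyltransferase, ran from 7.72 FPKM in A6 to 87.3 FPKM in A12. Trithorax-type genes, which keep Hox clusters active, were below 0 for 7 of 7, before and after scaling, against 64.9% of all tested symbols before scaling. Their median of -0.28 became -0.0936, and that of all symbols was 0.018 after scaling. As deposited, each of them was lowest in A6, as were 50.6% of tested symbols. Dpy30, Ash2l and Men1 were the most abundant.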

How the data were processed

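RNA from tumor punches was made into TruSeq libraries and sequenced as single reads by the authors. They aligned with Bowtie 2 and TopHat 2 and deposited a table of FPKM from Cufflinks. It was unscaled between tumors as far as the sources used here say. The submitters' processing notes name the human build hg19, while the contigs of the table are rat, so its positions are given without a build. All 6 HoxA genes stand on more than 1 row, and the row with the highest mean was used (every other Hox row was 0 throughout). The part of repeated loci in HoxA zeros was not tested.

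Symbols with a mean of at least 1 FPKM were tested on log2(FPKM + 1), a scale that understates changes of low genes, with limma 3.58.1 (lmFit, eBayes with a trend) in R 4.3.3, two-sided, with Benjamini-Hochberg adjustment over 10740 symbols. Python 3.11.15, numpy 2.4.6, pandas 2.3.3 and matplotlib 3.10.9 were used for the rest. Sums per library were compared by exact permutation. Steps between low FPKM gave relative depths against B9 of 0.5 for A12 (a ratio shared by 6.122% of low values) and 0.7474 for B14 (shared by 4.481%). The values of 0.895 for A1, 1.042 for A6 and 1.815 for B5 rested on under 2% and were not used. Precision is limited by unknown depth and by 3 tumors a group.

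Per-library values are given for every Hox gene reaching 1 FPKM, fold changes for the 2 most abundant of each class, and the 3 most abundant genes of each regulatory list are named. Some results on single genes are not reported here. Members and lists were chosen with earlier results of these data known. Same-numbered libraries deviated together from their group means (r = 0.430, 0.607 and 0.869), so the replicate number was also used as a block, although 2 pairs of unlike number, A1–B9 (0.648) and B5–A6 (0.6125), had a higher r than the first 2 of these. The labels do not say what a number marks. Other alternatives were a pseudocount of 0.1, no filter, eBayes without a trend, median-of-ratios scaling, other class limits and each library left out. The index without HoxA was added after seeing the data.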

Additional observations from a re-analysis of the deposited data

How the results depend on the processing

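No Hox gene passed an adjusted p under 0.05 in any fit run. Leaving out single libraries, Hox genes with an unadjusted p under 0.05 ran from 0 to 3, tested Hox genes below 0 from 6 to 10 (15 of 18 without a filter), all symbols called from 0 to 2 (2 without B14) and all symbols with an unadjusted p under 0.05 from 11 to 2128. The last count was 130 without a filter and 446 with the replicate block. The treatment difference of the posterior to anterior ratio ran from -1.57 to 0.26 with 1 library left out, was -1.84 with 0.1 FPKM added to each sum, 0.0405 for the mean log2 level per class and stayed at -0.80 with the replicate block (exact permutation p = 0.5, smallest possible 0.25). Its mean over libraries was -1.02 with 0.1 FPKM added, 0.57 with anterior groups 1 to 3, -1.64 with anterior groups 1 to 8, -0.52 for the mean log2 level per class (exact sign-flip p = 0.03125) and -0.73 to 0.0045 with 1 library left out. Without HoxA, chosen after seeing the data, the 2 values were -0.59 and -0.21. The mean number of Hox genes per library was 13.2 at 0.1 FPKM and 14.3 above 0. With 1 library left out, log2 fold changes ran from -0.45 to 0.60 for Hoxa2 (-0.0627 with a pseudocount of 0.1), -1.11 to 0.43 for Hoxc9, -2.12 to 0.11 for Hoxd9, -1.51 to -0.33 for Hoxb3, -1.14 to -0.12 for Hoxc4 and -2.19 to -0.17 for Hoxb7. The cause of these shifts was not tested. Unknown depth limits what can be said of every Hox gene under 1 FPKM.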

Other observations

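Marker lists of other tissues that a punch could hold were set beside the Hox sum, which was highest in A12 and then fell through B14, B5, B9 and A1 to A6. Endothelial markers (Pecam1, Emcn and Vwf the most abundant) summed to 184, 316 and 66.4 FPKM with vehicle (B5, B9 and B14) and 363, 556 and 58.5 FPKM with digitoxin (A1, A6 and A12), the exact reverse of the order of the Hox sum. Not every endothelial gene followed the sum, since Cdh5 was at 6.34 FPKM in A6 and highest in B9, at 27.3 FPKM. Airway markers, led by Scgb1a1, summed to 130844 FPKM in A6 and to 2.31 and 1.56 FPKM in A12 and B14, the reverse of the Hox order apart from these 2 libraries. Keratinocyte markers, of which Krt14 was the most abundant, summed to 20.1, 8.93 and 23.4 FPKM with vehicle (B5, B9 and B14) and 29.2, 9.97 and 31.4 FPKM with digitoxin (A1, A6 and A12). Leukocyte markers, led by Cd68, ran from 127 FPKM in A12 to 368 FPKM in A6, likewise the reverse apart from B5 and B9, but Itgam of that list was lowest in A6 (3.23 FPKM) and highest in B14 (30.6 FPKM). Keratinocyte, mesothelial and muscle markers had other orders. The mesothelial markers Msln and Wt1 ran from 79.4 FPKM in A6 to 197 FPKM in B5. Skeletal muscle markers ran from 4.36 FPKM in A12 to 16.6 FPKM in B14. Mylpf, a fast muscle light chain, was the only gene of these lists with an unadjusted p under 0.05 in limma's fit (log2 fold change -1.11), and its adjusted p was 0.926. The part of these tissues in the Hox values was not tested.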
